A study of Homo sapiens with 4 samples.

Results

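The genes described here are 10 negative regulators of ERK signalling, the dual-specificity phosphatase genes DUSP1, DUSP2, DUSP4, DUSP5 and DUSP6, the Sprouty genes SPRY1, SPRY2 and SPRY4, and the Sprouty-related genes SPRED1 and SPRED2. They were taken by name as listed inhibitors of the pathway, with earlier results of these data known, and they are 10 of the 20037 protein-coding genes examined. H3K27Ac occupancy, an acetyl mark of active enhancers and promoters, was profiled by ChIPmentation (immunoprecipitation followed by adapter insertion with the Tn5 transposase) in MOLM13, an established human AML cell line with MLL1-r (rearranged MLL1). The authors describe MOLM13 as carrying the MLL-AF9 fusion and FLT3-ITD, a mutation of FLT3. The control library came from cells that carry no drug in their sample label and DMSO in the treatment description, and the treated library from cells exposed to 500 nM of SNDX-50469, an inhibitor of the Menin-MLL1 interaction, for 16 h. Both conditions used the same cell line, each has 1 library, so no difference below has a replicate check and no p-value is given. The 2 libraries of input chromatin are not analysed here.

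In AML cells such as MOLM13, signals from receptor tyrosine kinases pass through RAS, RAF and MEK to the kinases ERK1 and ERK2. ERK signalling induces several of its own inhibitors, and their expression is widely read as a sign of pathway output. The DUSP enzymes remove phosphate from the activation loop of MAP kinases, SPRY proteins act further upstream between receptors and RAF, and SPRED proteins carry the RAS-inactivating protein NF1 to the membrane.

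All values below rest on lists of unequal size. The control list held 245875 peaks covering 224 Mb and the SNDX-50469 list 54061 peaks covering 29.4 Mb, and 9.71% of the control length was also covered in the SNDX-50469 list. The lists also began at unlike strengths, with a lowest −log10 p of 2.68 for control and 3.93 for SNDX-50469. The lists give no read totals, so the depth is unknown, and a weaker or shallower treated library cannot be told apart from lower H3K27Ac. The cell label was checked on 10 myeloid and blast genes, which all had control length within 5 kb of the 5′ end (4553 to 10001 bp, SPI1, MPO, CEBPA and FLT3 among them) and 7 of which had it after treatment. Of 10 lymphoid, erythroid and non-blood genes, 6 had control length there, up to 7681 bp at CD3D, and none had it after treatment, while HBB, ALB and EPCAM were among those with none in either.

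All 10 genes had control peaks of H3K27Ac, as did 15634 of the 20037 protein-coding genes. SNDX-50469 peaks were found at 9 of the 10, and the share over all genes was not counted. Each gene was examined together with 5 kb of flank at either end. What remained is given as a kept share, meaning how many percent of the bases under control peaks were also under SNDX-50469 peaks. At the 10 genes control peaks spanned 90601 bp, those of the treated library spanned 15366 bp, and 14303 bp were shared, a kept share of 15.8%. Over all 19666 protein-coding genes with a known strand the kept share was 11.5%. Each of the 10 genes had less covered length after treatment, and the share over all genes with any decrease was not counted. The reduction was at least 2-fold at 9, all but SPRY2, and the same call was made at 93.7% of all 15634 protein-coding genes that had any control peak. A loss of that size was therefore about as frequent here as in the genome at large. For the 10 genes the median of the kept shares was 17.2%, against 2.37% for all genes with a control peak and 6.65% for the 10396 genes whose control covered length lay within the range of the 10 (2247 to 29514 bp). These medians are a description and carry no test.

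**Figure D1:**
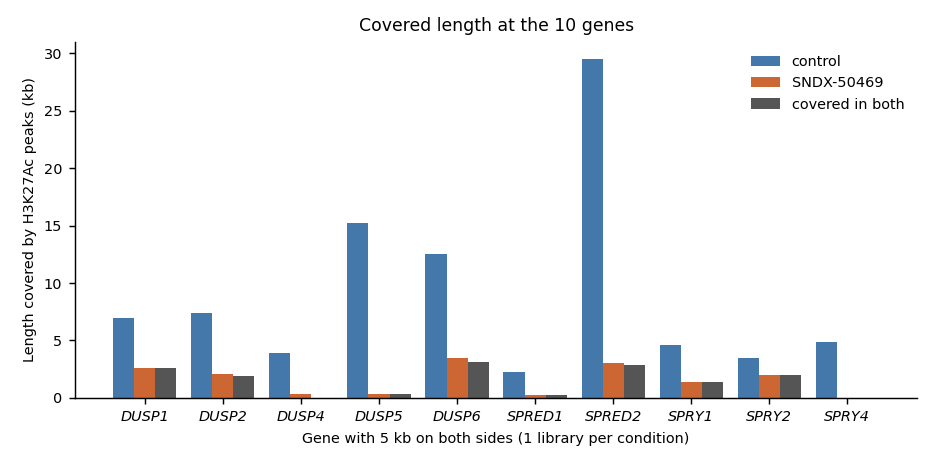
Bars give the length in kb covered by H3K27Ac peaks over each gene with 5 kb on both sides, in the control library, in the SNDX-50469 library and in both. SPRED2 had the longest control length, 29514 bp, and SPRY4 had no SNDX-50469 peak.

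The kept length lay almost entirely around the 5′ ends. Within 5 kb of the outermost annotated 5′ end, control peaks of the 10 genes covered 48531 bp and 13817 bp were kept, 28.5%. Outside these windows, in the remaining gene bodies and flanks, 486 of 42070 bp were kept, 1.16%. For all genes with a strand the corresponding shares were 20.4% and 7.88%. Of the 42070 bp, 20900 lay at SPRED2 and 10979 at DUSP5, so the share of 1.16% mostly describes these genes. With peaks from a −log10 p of 3.93 upwards in both lists, 40537 of 56374 bp of control length lay near the 5′ ends. The kept length was then 14288 bp, of which 13817 bp lay there. How far the unequal cutoffs of the lists made the contrast was not tested. All 10 genes had a control peak within 5 kb of the 5′ end, as did 67.4% of genes. Near the 5′ end some control length was kept at 7 of the 10 genes, against 50.8% of the 13248 genes with a control peak there, and the covered length was at least 2-fold lower at 9 of 10, against 89.7%. By family, 7436 of 27510 bp were kept near the 5′ ends of the DUSP genes, while the share was 32.4% for the SPRY genes and 28.4% for the SPRED genes. Single genes ranged more widely, from 0 to 41.1% among the DUSP genes and from 0 to 62.2% among the SPRY genes.

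**Figure D2:**
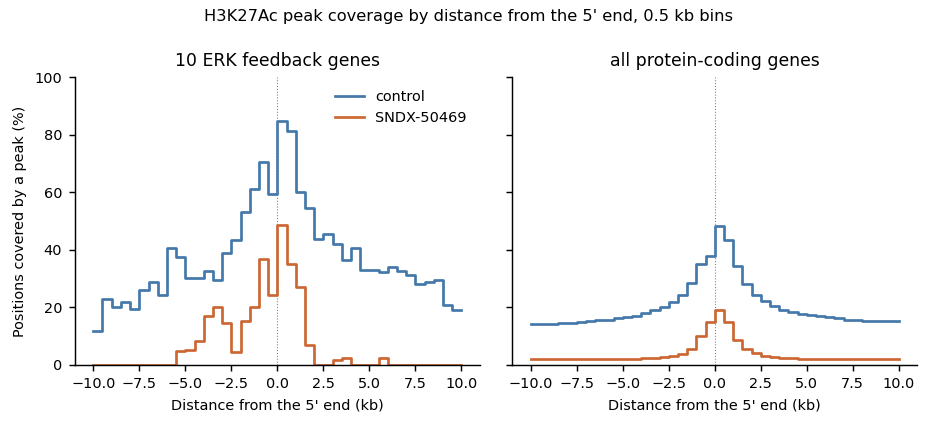
The percent of positions covered by an H3K27Ac peak is plotted in bins of 500 bp by distance from the 5′ end in kb, for the 10 ERK feedback genes and for all protein-coding genes with a strand. In the first bin downstream of the 5′ end, control peaks covered 84.6% of positions at the 10 genes and SNDX-50469 peaks 48.5%, against 48.3% and 19.0% for all genes.

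The control peaks that were kept were wide, and most of them were strong. Of the 101 control peaks at the 10 genes, 11 shared at least 1 bp with a SNDX-50469 peak. This was a share of 10.9% (Wilson 95% interval 6.19 to 18.5, counting error only), against 8.24% of all control peaks. The interval takes neighbouring peaks as independent, although 45 of the 101 lay at SPRED2, where 2 were kept. All 11 kept peaks were at least 1000 bp wide, a mark set after the values were seen. Of the 23 control peaks of that width at these genes 47.8% were kept, and of the 78 narrower ones none. In the whole list the shares were 29.2% and 3.07%. At these genes the mark lay below the narrowest kept peak (1385 bp), so the absence of narrower kept peaks was fixed by that choice. No interval or limit is therefore given. Among the narrower peaks, only those of 240 and 946 bp at DUSP5 and of 597 bp at DUSP6 reached a −log10 p of 3.93, the lowest of the SNDX-50469 list. A wide peak also shares 1 bp more easily. Whether width mattered apart from strength was not tested. Ranked by −log10 p among the 245875 control peaks, the strongest peak of each gene stood at 2115 for SPRY2, 4644 for SPRED2, 5086 for DUSP1, 6760 for DUSP6, 7260 for DUSP2, 7659 for SPRED1 and 12063 for SPRY1, and each of these 7 peaks was kept in part. The strongest peaks of DUSP5 (rank 16568), SPRY4 (17372) and DUSP4 (52654) were not kept, although weaker peaks of DUSP5 (rank 25957) and SPRED2 (62772) shared 347 and 15 bp with the treated list. Of the 20 SNDX-50469 peaks at the 10 genes, 4 shared no base with a control peak, and the whole-list share was not counted. By length, 14303 of 15366 bp under SNDX-50469 peaks at the 10 genes lay in control peaks. Over all genes with a strand 20046183 of 24134983 bp did. Over all genes with a control peak, the strongest control peak was kept at 49.8%. Peak strength and survival went together in the whole list too. Of the 12063 highest-ranking control peaks 70.0% were kept (69.2 to 70.8), and of those ranked between DUSP5 and DUSP4 10.2% (9.85 to 10.5). These limits were set at ranks of the 10 genes after their values were seen. Ranks between 12063 and 16568 fall in neither class.

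**Figure D3:**
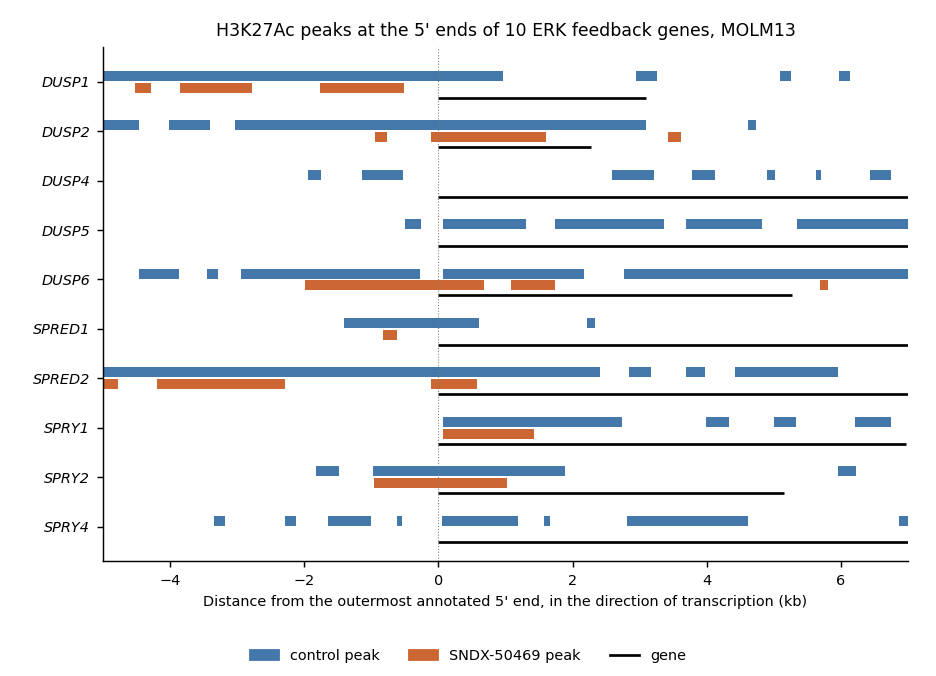
Horizontal bars mark H3K27Ac peaks of the control and SNDX-50469 lists from 5 kb upstream to 7 kb downstream of the 5′ end of each gene, in the direction of transcription, with the gene as a black line. SNDX-50469 peaks lay over the 5′ ends of DUSP2, DUSP6, SPRED2 and SPRY2, upstream of DUSP1 and SPRED1 and inside SPRY1, and none is seen in this range at DUSP4, DUSP5 and SPRY4.

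SPRY2, which encodes a Sprouty protein that restrains receptor signalling to RAS and RAF, had the highest kept share of the 10 when flanks were included. Over the gene without flanks it kept 54.1%, less than DUSP2 (71.0%). The gene occupies 80335976 to 80341126 of chromosome 13, on the minus strand. Most of its H3K27Ac lay in a control peak of 2854 bp with a fold of 7.01 over the background of its own library. That peak reached from 973 bp upstream to 1880 bp downstream of the 5′ end. The treated library had a single peak of 1982 bp there, from 965 bp upstream to 1016 bp downstream, with a fold of 4.35 over its own background. In all, the covered length went from 3451 to 1982 bp, the smallest reduction of the 10 genes at 1.74-fold, and 57.4% was kept. The upstream edges of both peaks nearly coincided, and this peak was shortened on the gene side. A separate control peak of 335 bp, 1487 to 1821 bp upstream, had no counterpart.

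SPRY1, another Sprouty gene, lies on chromosome 4 from 123396795 to 123403760. Control peaks covered 4572 bp and the SNDX-50469 list 1354 bp, of which all lay in control peaks, so that 29.6% was kept. Both lists began a peak at the same base, 73 bp inside the gene. The control peak ran to 2737 bp and the SNDX-50469 peak to 1426 bp downstream of the 5′ end. As at SPRY2, the downstream part of the domain was absent from the treated list. The other 5 control peaks of SPRY1, 183 to 530 bp wide, had no counterpart.

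SPRY4 behaved differently from both. It lies on chromosome 5 from 142310430 to 142325021, contains the lncRNA SPRY4-IT1 (142317620 to 142318322) and starts beside SPRY4-AS1, which begins at 142325293. The control list held 10 peaks covering 4820 bp, and the treated list held none, in the gene, in its flanks or at the 5′ end. Of the 10 control peaks, only the strongest reached a −log10 p of 3.93, the lowest of the SNDX-50469 list. No limit on the kept share is therefore given. The strongest control peak, 1143 bp wide from 47 to 1189 bp inside the gene, had a fold of 4.08 and a −log10 q of 3.44, the lowest of the 3 Sprouty genes.

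SPRED1 and SPRED2, which both act with NF1 to switch off RAS, started from unlike amounts of H3K27Ac. SPRED1 (chromosome 15, 38252836 to 38357249) carried 2247 bp of control peaks, nearly all in a peak of 2017 bp over its 5′ end, although the gene is 104414 bp long. After treatment 217 bp remained in a single peak between 829 and 613 bp upstream of the 5′ end, and 9.66% was kept. Over the gene without flanks nothing was kept.

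SPRED2 (chromosome 2, 65307175 to 65432599) had 45 control peaks covering 29514 bp and 5 SNDX-50469 peaks covering 3046 bp. The kept share was 9.63%, close to that of SPRED1, and was made up of unequal parts. Near the 5′ end 2828 of 8614 bp were kept, 32.8%, but elsewhere in the gene and its flanks 15 of 20900 bp, 0.0718%. The promoter-side control peak was the widest of all at these genes, 10042 bp, and 3 separate SNDX-50469 peaks of 692, 1909 and 461 bp lay within it. The weak intragenic control peaks between 65346813 and 65397266 shared 15 bp with the treated list in all. With peaks from a −log10 p of 3.93 upwards in both lists (the smallest of the SNDX-50469 list) all of those weak control peaks drop out, and the kept share of SPRED2 was 32.9%.

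**Figure D4:**
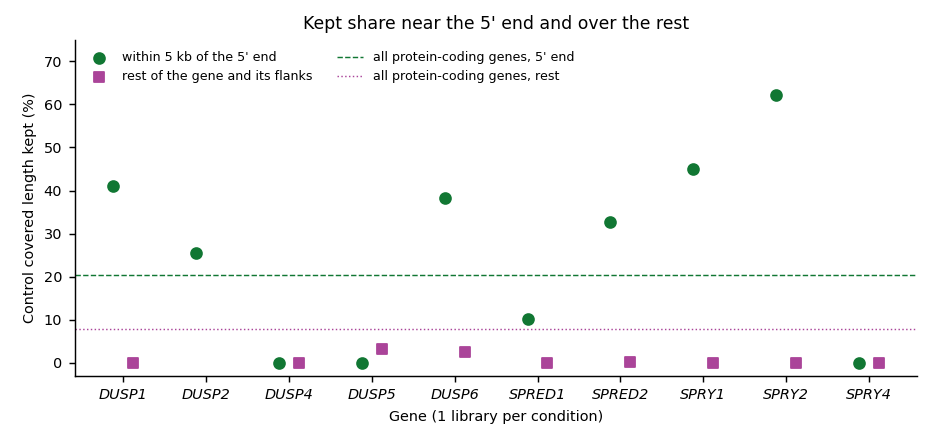
The percent of control covered length that was also covered after treatment is shown for each gene within 5 kb of its 5′ end (circles) and outside that window (squares), with lines at the pooled shares of all protein-coding genes, 20.4% and 7.88%. SPRY2 was highest near the 5′ end at 62.2%, DUSP4, DUSP5 and SPRY4 were at 0 there, and no square reached 7.88%. DUSP2 has no square because all its control length lay within 5 kb of the 5′ end.

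DUSP1, a nuclear phosphatase of ERK, JNK and p38 that is induced within minutes of stimulation, lies on chromosome 5 from 172768096 to 172771195. Its control list was led by a peak of 6924 bp with a fold of 5.78, which covered the 5′ end and reached 5964 bp upstream. The covered length was 6915 bp in control and 2579 bp in the treated library, and 37.3% was kept. All of the kept length was upstream, in peaks at 514 to 1770, 2772 to 3850 and 4287 to 4529 bp before the 5′ end. The 5′ end and the gene itself held no SNDX-50469 peak, so that the kept share was 0 without flanks. The upstream lncRNA LOC105377730 (172772211 to 172782334) overlaps this stretch, and its share of the mark cannot be told apart from that of DUSP1.

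DUSP2, a nuclear phosphatase known from activated blood cells, lies on chromosome 2 from 96143169 to 96145440. Its covered length went from 7401 bp to 2088 bp, with 25.5% kept. Here the SNDX-50469 peak of 1715 bp lay over the gene, from 103 bp upstream to 1611 bp downstream of the 5′ end, inside a control peak of 6132 bp. A further SNDX-50469 peak of 175 bp, the strongest of the gene in that list, lay 772 to 946 bp upstream within the same control peak. DUSP2 thus kept length on both sides of its 5′ end, whereas DUSP1 kept it upstream. Over the gene without flanks DUSP2 kept 71.0%, the highest share of the 10 on that measure. A weak peak of 198 bp beyond the gene's end was seen only in the SNDX-50469 list.

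DUSP6, a cytoplasmic phosphatase with strong preference for ERK, lies on chromosome 12 from 89347235 to 89352501 and is also part of the readthrough gene POC1B-DUSP6. The covered length was 12535 bp in control and 3438 bp in the treated library, with 24.7% kept. In control the 5′ end fell in a gap between a peak ending 273 bp upstream and one starting 75 bp inside the gene. After treatment a single peak of 2665 bp, from 1984 bp upstream to 680 bp downstream, ran across that gap. The 347 bp of the gap were therefore covered in the SNDX-50469 list alone, the longest such stretch at the 10 genes. Broad peaks were called in each list separately, and whether a gap is bridged depends on the calling.

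DUSP5, a nuclear phosphatase specific for ERK, had the longest control length of the 10 genes after SPRED2 and kept little of it. It lies on chromosome 10 from 110497907 to 110511533, with 8 control peaks covering 15202 bp that ran with short gaps from 494 bp upstream to 17832 bp downstream of the 5′ end. The treated list held a single peak of 347 bp, 14130 to 14476 bp downstream and past the gene's end, and 2.28% was kept. Within 5 kb of the 5′ end none of 4223 bp was kept. Its strongest control peak, 5694 bp wide with a fold of 4.15, was intragenic and weaker than the leading peaks of DUSP1, DUSP2 and DUSP6 (5.78, 5.21 and 5.40).

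DUSP4, a nuclear phosphatase of ERK and JNK, lies on chromosome 8 from 29333064 to 29350684. Its 11 control peaks were all short and weak, the strongest being 80 bp wide with a fold of 3.35, and covered 3944 bp. The 2 SNDX-50469 peaks, 175 and 140 bp wide, shared no base with them, and none of the control length was kept (0 of 11 peaks). The strongest control peak had a −log10 p of 3.80, below 3.93, the lowest of the SNDX-50469 list. No limit on the kept share is therefore given. SNDX-50469 peaks outside control peaks were common on that chromosome, where 91.2% of 624 genes with a control peak had such length, against 33.6% elsewhere. Kept length was also more frequent there, at 86.2% of genes against 54.0%, and the median kept share was 15.4% against 2.37% for all genes. The part of these differences in the DUSP4 values was not tested.

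The 5′ end base itself lay in a control peak at 5 of the 10 genes (DUSP1, DUSP2, SPRED1, SPRED2 and SPRY2), as it did for 38.9% of genes, and in a SNDX-50469 peak at 4 (DUSP2, DUSP6, SPRED2 and SPRY2), against 17.3%. At DUSP1 and SPRED1 the base was covered in control and not after treatment, and at DUSP6 the reverse was found. RefSeq promoter windows differed between the starts of a gene. Of the 3 windows of SPRY2, each the 250 bases before an annotated start, the outermost was covered in full by both lists, the middle one for 250 and 249 bp, and the innermost in control only. At the inner start of SPRY1 control peaks covered all 250 bp and the SNDX-50469 peak 86 bp. The inner window of SPRY4 was covered for 250 bp in control and 0 bp after treatment. The outermost 5′ end base of both genes lay in neither list.

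Promoter sequences are shown for 4 genes, SPRY2, whose window was covered in full by both lists, DUSP2, where control peaks covered all 250 bp and the SNDX-50469 peak the 103 bp next to the gene, and DUSP1 and SPRED1, where it was covered in control alone. Each is the 250 bases before the outermost RefSeq start in GRCh38.p14, written 5′ to 3′ on the gene's strand. Capitals mark matches on either strand to TGACGTCA and TGACG (the cAMP response element and its half-site, which overlap), GGGCGG (the GC box), CCGGAA (the ETS core), TGANTCA (the AP-1 site) and the CArG box of serum response factor. The windows are chr2:96145441-96145690 for DUSP2, chr13:80341127-80341376 for SPRY2, chr5:172771196-172771445 for DUSP1 and chr15:38252586-38252835 for SPRED1, with SPRED1 on the plus strand and the others on the minus strand.
DUSP2: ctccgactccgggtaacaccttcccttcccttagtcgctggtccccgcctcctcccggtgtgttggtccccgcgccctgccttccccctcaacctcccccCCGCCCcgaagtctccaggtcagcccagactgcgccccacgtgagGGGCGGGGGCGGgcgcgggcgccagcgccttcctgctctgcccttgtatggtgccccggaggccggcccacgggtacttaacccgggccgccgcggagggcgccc
SPRY2: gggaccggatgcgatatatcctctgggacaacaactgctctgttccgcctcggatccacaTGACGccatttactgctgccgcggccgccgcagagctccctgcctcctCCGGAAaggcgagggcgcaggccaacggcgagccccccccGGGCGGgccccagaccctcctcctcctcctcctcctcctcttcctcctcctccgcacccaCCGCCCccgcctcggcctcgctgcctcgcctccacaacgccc
DUSP1: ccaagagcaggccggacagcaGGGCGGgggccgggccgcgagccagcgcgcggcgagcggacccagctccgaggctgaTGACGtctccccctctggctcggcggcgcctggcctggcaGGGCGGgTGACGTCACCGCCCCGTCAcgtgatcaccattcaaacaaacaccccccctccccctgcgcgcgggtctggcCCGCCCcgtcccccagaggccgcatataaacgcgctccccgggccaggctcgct
SPRED1: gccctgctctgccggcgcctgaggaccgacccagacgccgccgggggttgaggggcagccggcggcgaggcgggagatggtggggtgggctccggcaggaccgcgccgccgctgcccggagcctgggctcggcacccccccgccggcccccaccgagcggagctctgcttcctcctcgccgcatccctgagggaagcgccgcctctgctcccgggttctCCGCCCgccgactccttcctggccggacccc

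The DUSP1 window held 1 full cAMP response element, starting 125 bases before the start site, and 4 matches of its half-site, of which 2 lie inside the full element. Of 35116 RefSeq promoter windows of the same length, 1.65% held the full element and 21.2% the half-site. SPRY2 held 1 match of the half-site, 190 bases before its start, and DUSP2 and SPRED1 held none. The GC box was found 4 times in DUSP1, 3 times in DUSP2, 2 times in SPRY2 and 1 time in SPRED1, and in 42.6% of all windows. The ETS core was found 1 time among the 4, in SPRY2 at 142 bases before the start, and in 14.5% of windows. The AP-1 site (6.57% of windows) and the CArG box (1.16%) were in none of the 4. The outermost window of SPRED2, not printed, was covered for 250 bp in control and 117 bp after treatment and held no GC box. A match is no measurement of binding.

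The SNDX-50469 peaks at these genes were mostly stronger than the middle of their own list. The 20 peaks had a −log10 q from 1.39 to 2.76 with a median of 1.94, and the median of the whole SNDX-50469 list was 1.65. Of the 101 control peaks, 7 at 6 genes had a −log10 q of at least 5, as did 9275 of all 245875 control peaks. In the whole SNDX-50469 list 938 of 54061 peaks reached it. No SNDX-50469 peak at these genes exceeded 2.76, so with that cutoff in both lists none of the control length could be kept. With the common −log10 p cutoff 25.3% was kept.

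The other genes of the RAS-ERK pathway lost covered length about as often as genes at large, of which 93.7% were at least 2-fold lower and which kept 11.5% in all. Of 54 genes listed by role, 51 had a control peak, 49 of these were at least 2-fold lower after treatment and none was higher, with a pooled kept share of 10.7% and a median of 6.62%. Near the 5′ ends they kept 18.1% of 230871 bp.

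Among adaptors and exchange factors, 9 of 9 genes with a control peak were at least 2-fold lower and 12.1% was kept. GAB2, a docking protein that brings the phosphatase SHP2 to receptors, fell from 159390 to 18849 bp, with 11.8% kept. GRB2, the adaptor that links receptors to SOS, fell from 62896 to 6367 bp, with 9.78% kept. The highest shares in this role were 27.3% at SHC1, an adaptor, and 26.9% at RASGRP2, an exchange factor.

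For RAS genes and GTPase activators, 9 of 10 were at least 2-fold lower and 11.6% was kept. RASA3 fell from 112129 to 18979 bp and kept 16.6%, and RASA1 fell from 67532 to 186 bp and kept 0.275%. Both encode GTPase activating proteins for RAS, and they differed widely in what remained. NF1, the partner of the SPRED proteins, kept 16.9% of 48168 bp.

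Kinases and scaffolds kept least, 4.81%, and all 11 were at least 2-fold lower. KSR1, a scaffold for RAF and MEK, fell from 123935 to 5771 bp with 4.53% kept, and MAP2K2, which encodes a MEK kinase, from 30883 to 1667 bp with 4.70% kept. SHOC2, a scaffold that helps to activate RAF, kept 19.2%.

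The other phosphatase and feedback genes kept 16.3%, with 11 of 11 at least 2-fold lower. DUSP3, a small phosphatase of ERK and JNK, kept 38.2% of 21575 bp and DUSP10, which acts on JNK and p38, 15.7% of 45846 bp. IER3, an ERK-induced early gene, kept 16.8% of 10689 bp. Of the ERK-responsive transcription factor and cyclin genes 9 of 10 were at least 2-fold lower and 13.3% was kept. MYC, a transcription factor stabilised by ERK, lies on the same chromosome as DUSP4 and kept 50.3% of 11791 bp, and ETV1, an ETS factor, 17.9% of 5298 bp. ETV5, an ETS factor often read together with DUSP6 and SPRY4, fell from 12612 bp to none, and FOSL1, a subunit of AP-1, kept 9.37% of 13110 bp.

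**Figure D5:**
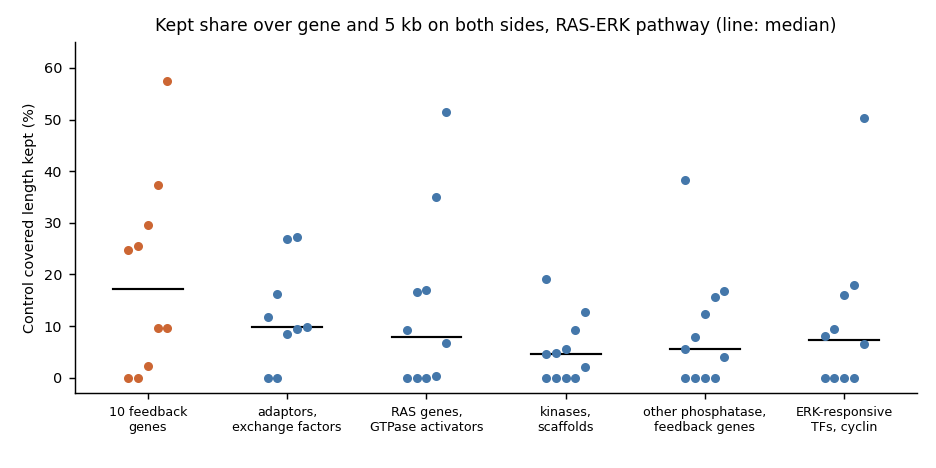
Each point is the percent of control covered length kept at a gene with 5 kb on both sides, for the 10 ERK feedback genes and 5 roles of the RAS-ERK pathway, with the median as a line. The median was 17.2% for the 10 genes and between 4.53% (kinases and scaffolds) and 9.78% (adaptors and exchange factors) for the roles, with overlapping points.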

How the data were processed

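H3K27Ac ChIPmentation libraries of MOLM13 cells were analysed, 1 control and 1 treated with SNDX-50469, as labelled. The submitters' processing notes name Trim Galore 0.6.5, Bowtie2 2.3.4.2, Picard 2.9.0, MACS2 2.1.2 and GRCh38 without options. Whether input reads entered the peak calling is not given in the sources used here. The authors deposited 1 broad-peak file per library. For each peak the deposited columns hold a fold ratio over the background of its own library, a −log10 p, a −log10 q and a score, which equals the −log10 q times 10 cut to a whole number and was not used. The fold is averaged over a peak and is not scaled between libraries, so folds and ranks were read within a list and only positions were compared between lists.

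Python 3.11.15 with numpy 2.4.6 and pandas 2.3.3 was used. Protein-coding gene positions came from RefSeq for GRCh38.p14, the build of the peak lists. The strand came from the RefSeq promoter table (15842 genes) or by symbol from GENCODE (3824), from which no coordinate was taken, and 371 genes had none. Control peaks sharing at least 1 bp with the other list were counted as kept. The interval arithmetic was checked base by base on simulated lists. No test between conditions was possible with 1 library each. The 10 genes, the pathway and marker lists and the motifs were chosen with earlier results of these data known. The genes named were all 10 members, and per pathway role the 2 with the longest control length and the 2 with the highest kept share among those with at least 5000 bp covered in control. A gene that this rule names is not reported here. Alternatives were other flanks and 5′ windows, stricter peak cutoffs, a trimmed control list, a stricter overlap and DUSP4 left out. Promoter sequences are from RefSeq, with 12 windows for 8 of the 10 genes.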

Additional observations from a re-analysis of the deposited data

How the results depend on the processing

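No paired analysis was possible because there is only 1 library of each condition. The pooled kept share of the 10 genes (15.8%) was 10.3% without flanks, 12.7% with 10 kb and 6.89% with 50 kb on both sides, and 16.5% without DUSP4. It was 13.6% at a −log10 q of at least 2 in both lists, 0% at 5, and 25.3% with the common −log10 p cutoff. The share near the 5′ ends (28.5%) was 46.6% within 1 kb, 39.5% within 2 kb and 29.6% without DUSP4, and 20.1%, 0% and 34.1% under those 3 cutoffs in turn. The share of control peaks kept (10.9%) was 5.52% with 50 kb on both sides, 3.96% when 50% or more of a peak had to be covered, and 23.3%, 0% and 50% under the same 3 cutoffs. With the control list trimmed to the covered length of the treated list, 1 peak was left at the 10 genes, that of SPRY2. It was kept (100%), 69.4% of its length was covered in both lists, and 0 genes were at least 2-fold lower. In the other alternatives that count lay between 6 and 10, with unequal numbers of genes that had a control peak. It was 7 of 10 at a −log10 q of at least 2, 6 of 6 at 5, and 7 of 9 with the common −log10 p cutoff. The share over all genes (93.7%) is given for the main setting only, so these counts have no background. At a −log10 q of at least 5 only 6 of the 10 genes had a control peak. No SNDX-50469 peak at the 10 genes exceeded 2.76, so the values of 0% and the count of 6 at that cutoff were fixed in advance. The cause of the other shifts was not tested, beyond the fewer peaks that each cutoff leaves.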
